A study of Mus musculus with 9 samples.

Results

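Interferon-stimulated genes are switched on when a cell receives a type I or type II interferon signal, and 36 of them were followed here in atherosclerotic mouse aorta after an adenoviral vector. Each gene was read from its brightest probe set among those annotated to 1 gene, and 34 of the 36 had such a probe set, out of 18193 genes measured in this way. Isg15 and Ifi44 were not analysed here. RNA came from aortas of female APOE-/- mice on a C57BL/6 background, bought at 8 weeks of age and then kept for 30 weeks on food with 0.2% cholesterol and 10% coconut oil. All groups, the controls included, therefore lacked the mouse's own apolipoprotein E and carried diet-induced disease. The PBS group received the vehicle (PBS) by tail vein, the HDAd-0 group an empty helper-dependent adenoviral vector, and the HDAd-gE3 group the same kind of vector expressing human apolipoprotein E3. Helper-dependent vectors keep the adenoviral capsid but carry no viral genes, and after injection into a vein they are taken up mainly by the liver. Aortas from the sinus to the arch were taken 10 days after the injection, 3 aortas were pooled for each array, and each group had 3 arrays, so the spread below is between pools and not between mice.

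Interferons bind receptors that activate the kinases Jak1 and Tyk2. These phosphorylate STAT proteins, and a complex that holds Stat2 and Irf9 binds interferon-stimulated response elements (ISREs) in the promoters of the induced genes. The products include sensors of viral nucleic acid, enzymes that degrade or block viral RNA, GTPases that act on intracellular pathogens, and feedback regulators such as Usp18. In lesions of the artery wall, macrophages, lymphocytes and endothelial cells all express such genes.

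The deposited values were log2 signals that ran from 1.98 to 14.7, with array medians between 6.67 and 6.77. Smooth muscle markers, which define the aortic media, read a mean of 12.81 to 13.09 on the 9 arrays and endothelial markers 10.19 to 10.75, so both wall cell types were present. Differences are given as log2, with the standard error (SE) from limma linear models over all 9 arrays. A gene passed when its p, adjusted by the Benjamini-Hochberg method over all 18193 genes, was under 0.05. An exact permutation test of 3 arrays against 3 cannot give a p under 0.1. In pooled tissue, a change in the number of cells of a type and a change in RNA per cell cannot be told apart.

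Promoter stretches are shown for some of the genes described below, because the ISRE is the element through which type I interferon acts. RefSeq promoter windows (assembly GRCm38.p6, 250 bases before to 50 after the start site) were found for 27 of the 36 genes. They were searched on both strands for the ISRE core, here GAAA, any 2 bases and GAAA again, which on the other strand reads TTTC, 2 bases and TTTC. The core was present for 16 of these 27 genes (59.3%), against 3.99% of all 27025 genes with a window. Stretches of 60 bases that end before the start site are printed 5′ to 3′ on the gene's strand, with the core in capitals; where neighbouring cores overlap, the capitals run on.

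Rsad2, chr12:26456538-26456597, minus strand: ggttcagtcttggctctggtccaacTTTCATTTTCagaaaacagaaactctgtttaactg
Oas1a, chr5:120907526-120907585, minus strand: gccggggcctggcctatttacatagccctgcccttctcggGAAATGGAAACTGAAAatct
Oas3, chr5:120777700-120777759, minus strand: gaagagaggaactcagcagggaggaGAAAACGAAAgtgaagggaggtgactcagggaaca
Ifit1, chr19:34640779-34640838, plus strand: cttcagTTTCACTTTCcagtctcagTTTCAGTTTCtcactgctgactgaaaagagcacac
Ifit3, chr19:34583382-34583441, plus strand: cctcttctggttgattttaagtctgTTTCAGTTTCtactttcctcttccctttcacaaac
Gbp2, chr3:142620579-142620638, plus strand: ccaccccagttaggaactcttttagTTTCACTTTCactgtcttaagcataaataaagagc
Gbp3, chr3:142559980-142560039, plus strand: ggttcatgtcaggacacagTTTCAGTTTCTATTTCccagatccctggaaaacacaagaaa
Bst2, chr8:71537562-71537621, minus strand: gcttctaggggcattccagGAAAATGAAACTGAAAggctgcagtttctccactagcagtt

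The core nearest the start site began 120 bases before it in Rsad2, 75 in Oas3, 85 in Ifit1, 122 in Ifit3 and 14 in Oas1a. All 4 interferon-inducible GTPase genes (Gbp2, Gbp3, Igtp, Irgm1) had a core. Isg20, which has the largest difference below on the brightest probe sets, had none in its 3 windows, and neither had Irf7, Irf9, Oasl2 or Cmpk2 in theirs; that says only that these letters are not in these stretches. The 250 bases before the start site in the first of the 3 Isg20 windows are printed for comparison with Rsad2, all in lower case because they hold no ISRE core.

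Isg20, chr7:78913174-78913423, plus strand: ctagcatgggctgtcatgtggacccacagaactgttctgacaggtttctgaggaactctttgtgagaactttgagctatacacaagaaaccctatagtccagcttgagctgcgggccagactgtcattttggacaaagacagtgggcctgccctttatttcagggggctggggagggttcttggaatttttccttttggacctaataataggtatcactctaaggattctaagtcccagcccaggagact

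A second element, the GAS core TTCNNNGAA bound by STAT dimers, was found for 7 of the 27 genes (25.9%), against 9.55% of all genes. Isg20 was among them, with 1 GAS core, left unmarked, in the bases printed above. Of the 34 measured genes, 25 had a window. Against PBS, the 15 with a core had a median difference of 0.223 with HDAd-0 and 0.052 with HDAd-gE3. The 10 with a window but no core had 0.197 and -0.045.

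HDAd-0 against PBS asks what the vector without a transgene does in this tissue. None of the 34 genes passed, where 0.066% of all genes did, and the smallest adjusted p was 0.149 (limma, Dhx58). The means nevertheless leaned one way: 31 of 34 were higher with HDAd-0, against 57.6% of all genes, and the median difference was 0.221 against 0.024 over all genes. At an unadjusted p under 0.05, 11 were higher and 0 lower, where 8.5% of all genes were higher and 4.39% lower. In 12 genes all 3 HDAd-0 arrays lay above all 3 PBS arrays, and in 0 genes below (11.8% and 7% of all genes). Without HDAd-0 replicate 5 the median was 0.100, 27 genes were higher in mean and 6 were higher at an unadjusted p under 0.05. Without HDAd-0 replicate 4 the last count was 18, and without PBS replicate 3 or PBS replicate 4 it was 7. Shares of all genes under altered fits are not given here or below. Counts from such fits therefore cannot be set against all genes.

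HDAd-gE3 against PBS asks the same of the vector with its transgene. Again 0 of 34 genes passed, where 0.126% of all genes did, and the smallest adjusted p was 0.0847 (limma), shared by Rsad2 and Isg20. The median difference was 0.019 against -0.015 over all genes, and 21 of 34 genes were higher in mean against 45.4% of all genes. At an unadjusted p under 0.05, 5 genes were higher (Dhx58, Oas3, Mx1, Rsad2 and Isg20) and 0 lower, where 5.94% of all genes were higher and 7.27% lower. The groups lay apart in 10 genes, 6 higher and 4 lower, where 10.8% and 13.2% of all genes did. With array weights 4 genes passed in this comparison (Rsad2, Isg20, Oas3 and Mx1), and with an intensity trend 2 did (Rsad2 and Isg20). How many of all genes passed under these settings is not given here.

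HDAd-gE3 against HDAd-0 compares the vector with and without the human gene. None of the 34 genes passed, where 0.0055% of all genes did. The median difference was -0.126 against -0.040 over all genes, and 6 of 34 genes were higher in mean, against 38.3% of all genes. At an unadjusted p under 0.05, 8 genes were lower (Ifih1, Dhx58, Irf7, Irf9, Oas1a, Oasl2, Parp14 and Rtp4) and 1 was higher (Isg20), where 9.4% and 3.46% of all genes were. All HDAd-gE3 arrays lay under all HDAd-0 arrays in 7 genes and above them in 0, against 12% and 4.25% of all genes. With HDAd-0 replicate 5 left out the median was -0.034, 12 genes were higher in mean, and 4 in place of 8 were lower at that level. That count was 13 without HDAd-0 replicate 4 and 5 without HDAd-0 replicate 3, HDAd-gE3 replicate 2 or HDAd-gE3 replicate 3. These 3 comparisons share arrays, so they are not independent of each other. Taking both vector groups as 1 average against PBS, 0 genes passed, where 0.187% of all genes did, and the median was 0.091 against 0.004 over all genes. There 27 genes were higher in mean (51.3% of all genes), and at an unadjusted p under 0.05, 7 were higher and 0 lower (7.38% and 5.69% of all genes). Without HDAd-0 replicate 4, Oas3 and Rsad2 passed in that average, and 13 genes were higher at the unadjusted level. The shares of all genes in that fit are not given here.

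**Figure D1:**
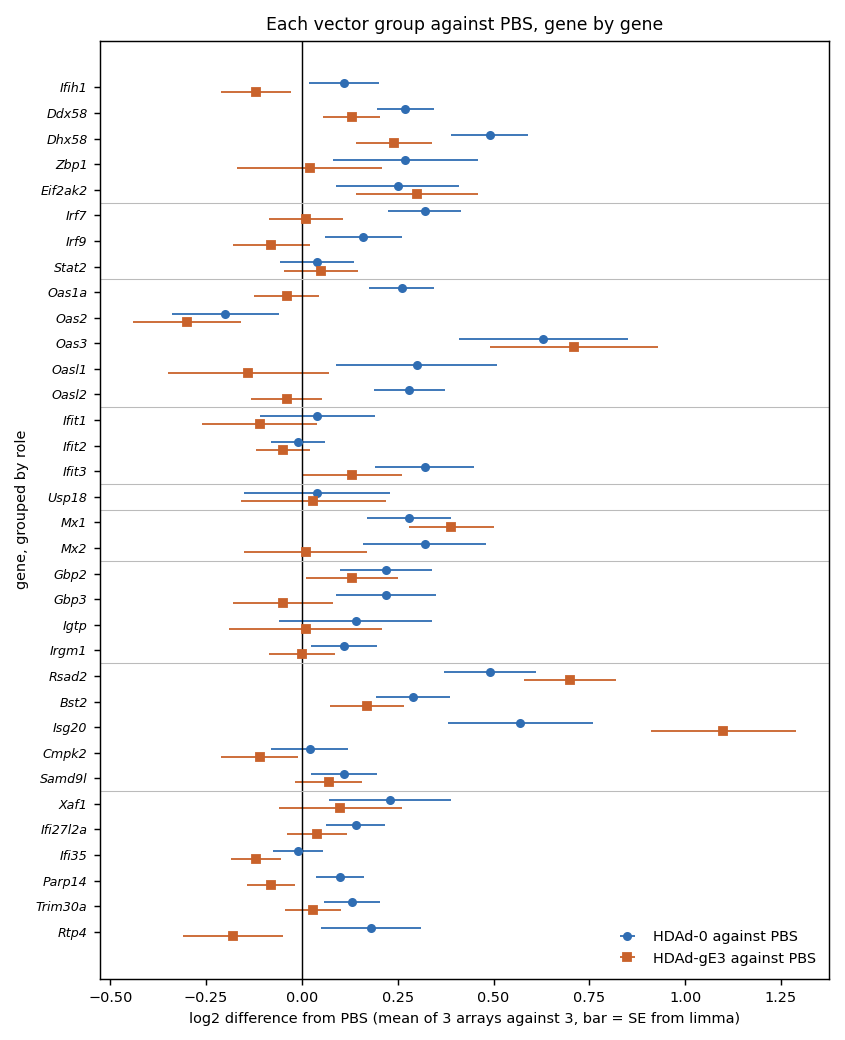
Log2 difference from PBS (x axis) for each of the 34 genes (y axis, grouped by role), as points for HDAd-0 (circles) and HDAd-gE3 (squares) with bars for the SE from limma, means of 3 arrays against 3. Most HDAd-0 points lie right of 0, while HDAd-gE3 points sit around 0 apart from a few such as Isg20 at 1.10, Oas3 at 0.71 and Rsad2 at 0.70.

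The arrays of the HDAd-0 group did not stand alike on these genes. HDAd-0 replicate 5 held the highest of the 9 values for 25 of the 34 genes (73.5%), while it held the highest value for 11.6% of all genes. HDAd-0 replicate 4 was the lowest of its group for 24 of the 34, and for 7298 of all 18193 genes. Replicate 5 lay above every PBS array for 31 genes, replicate 3 for 25 and replicate 4 for 16. The same counts over all genes were 32.7%, 41.3% and 35.9%, so replicate 5 did not stand out over all genes. The median deviation of the 34 genes from their mean over the 9 arrays was 0.298 on HDAd-0 replicate 5, 0.107 on replicate 3 and -0.055 on replicate 4. It lay between -0.07 and 0.01 on the HDAd-gE3 arrays and between -0.084 and -0.049 on the PBS arrays.

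**Figure D2:**
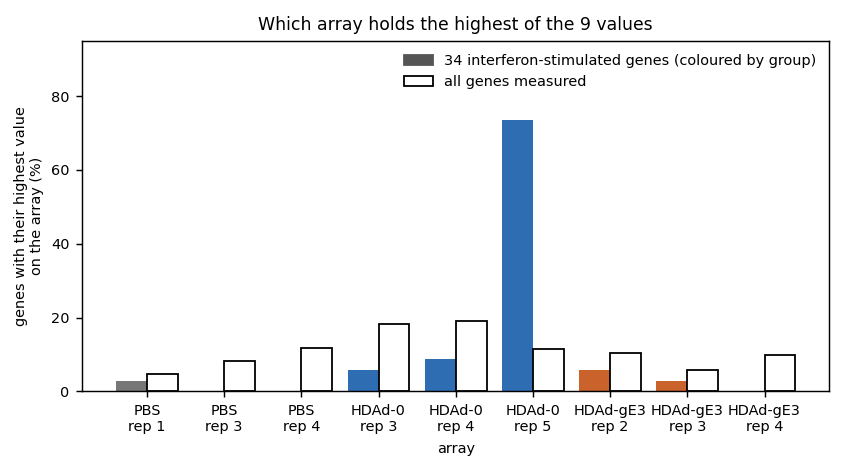
Share of genes (y axis, percent) that have their highest of 9 values on each array (x axis), for the 34 interferon-stimulated genes (bars coloured by group) and for 18193 genes (white bars). The bar of HDAd-0 replicate 5 reaches 73.5% of the 34 genes but 11.6% of all genes.

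The spread between arrays was widest with HDAd-0. The median SD of the 34 genes was 0.187 with HDAd-0, 0.11 with HDAd-gE3 and 0.0712 with PBS, while the median SD of all genes was 0.122, 0.0937 and 0.0806. Within HDAd-0 it exceeded the SD of 71.9% of all genes, and within PBS that of 44.4%. Oasl1 had the largest SD with HDAd-0, at 0.5, and Parp14 the smallest with PBS, at 0.0034.

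**Figure D3:**
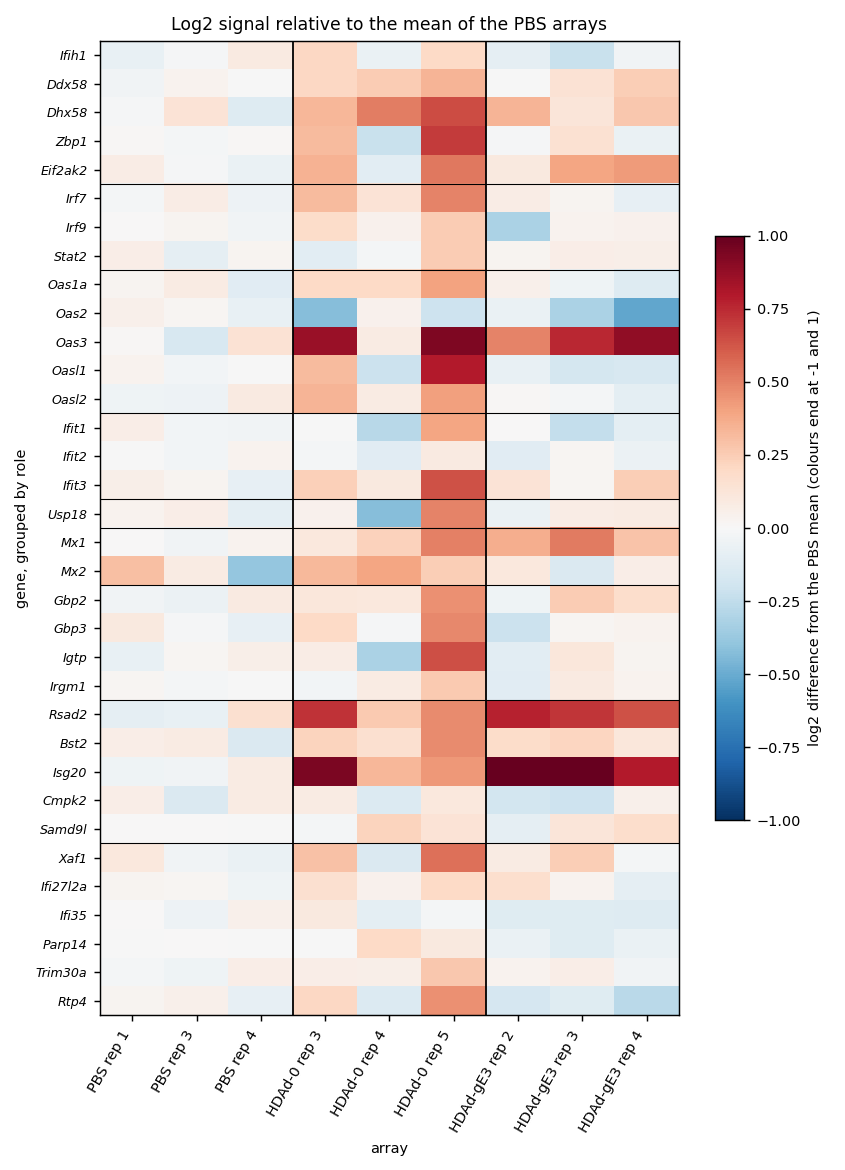
Log2 signal of the 34 genes (rows, grouped by role with lines between roles) on the 9 arrays (columns, in 3 groups), each relative to the mean of the PBS arrays, with red for higher and blue for lower. The column of HDAd-0 replicate 5 is red for nearly every gene, while Rsad2, Isg20 and Oas3 are red in all 3 columns of HDAd-gE3 as well.

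Sensors of viral nucleic acid were higher in mean in all 5 cases with HDAd-0 against PBS, with a median of 0.267. Dhx58 encodes LGP2, a regulator of the RNA helicase sensors. It read 7.66, 7.84 and 7.98 on the HDAd-0 arrays (replicates 3, 4 and 5), 7.67, 7.45 and 7.60 on the HDAd-gE3 arrays (replicates 2, 3 and 4) and 7.32, 7.47 and 7.20 on the PBS arrays (replicates 1, 3 and 4). All HDAd-0 arrays lay above all PBS arrays, with HDAd-gE3 between them and touching both. The difference from PBS was 0.49 ± 0.1 (SE) with HDAd-0 and 0.24 ± 0.1 with HDAd-gE3 (limma, adjusted p = 0.149 and 0.366). It rests on 1 usable probe set, since the other probe sets of Dhx58 had group means of 4.50 to 4.59 and 2.75 to 2.89, near the bottom of the scale; on the mean of all its probe sets the differences were 0.15 and 0.04.

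Ddx58, which encodes the RNA sensor RIG-I, read 9.28, 9.33 and 9.41 with HDAd-0, 9.07, 9.22 and 9.32 with HDAd-gE3 and 9.04, 9.11 and 9.07 with PBS. HDAd-0 again lay wholly above PBS, by 0.27 ± 0.074 (limma, adjusted p = 0.219), and HDAd-gE3 overlapped both groups. The dimmer probe sets of Ddx58 gave 0.14 and 0.18 with HDAd-0, and -0.03 and 0.18 with HDAd-gE3. Ifih1 encodes MDA5, a sensor of long double-stranded RNA, and was 0.11 from PBS with HDAd-0 and -0.12 with HDAd-gE3, so that the vector groups differed by -0.23 ± 0.091 (limma, adjusted p = 0.359). Eif2ak2 encodes the kinase PKR, which halts translation on sensing double-stranded RNA. Its differences from PBS were 0.25 ± 0.16 with HDAd-0 and 0.30 ± 0.16 with HDAd-gE3. The second Eif2ak2 probe set gave 0.01 and 0.09. The dimmest gave 0.41 and 0.33, with all vector arrays above all PBS arrays. Zbp1, a sensor of Z-form nucleic acids, had 9.89 on HDAd-0 replicate 5 but 8.97 on replicate 4, a wider range than the 9.12 to 9.34 of the 6 other arrays outside that group.

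Among the transducers, Irf7, the transcription factor that amplifies type I interferon production, read 8.74, 8.56 and 8.92 with HDAd-0, 8.50, 8.45 and 8.34 with HDAd-gE3 and 8.40, 8.50 and 8.37 with PBS. All HDAd-0 arrays lay above the arrays of both other groups, which overlapped each other. The difference was 0.32 ± 0.096 from PBS and -0.31 ± 0.096 for HDAd-gE3 against HDAd-0 (limma, adjusted p = 0.245 and 0.286). Irf9, the DNA-binding part of the STAT complex, read 10.13, 9.99 and 10.20 with HDAd-0, 9.63, 9.98 and 9.99 with HDAd-gE3 and 9.95, 9.97 and 9.91 with PBS. Its lowest HDAd-0 array equalled the highest HDAd-gE3 array to 2 decimals, and HDAd-gE3 replicate 2 stood below the rest. HDAd-gE3 against HDAd-0 was -0.24 ± 0.1 (limma, adjusted p = 0.38), and -0.12 without that array. Stat2 was near level on its brightest probe set, with means of 8.04, 8.05 and 7.99 in HDAd-0, HDAd-gE3 and PBS. Its dimmer probe set gave differences from PBS of 0.21 ± 0.1 with HDAd-0 and 0.19 ± 0.1 with HDAd-gE3.

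The oligoadenylate synthetases make the second messenger that activates the RNA-degrading enzyme RNase L, and their members differed in order between the groups. Oas1a read 10.24, 10.24 and 10.44 with HDAd-0, 10.09, 10.00 and 9.91 with HDAd-gE3 and 10.07, 10.12 and 9.93 with PBS. HDAd-0 lay above both other groups, by 0.26 ± 0.085 against PBS, and HDAd-gE3 against HDAd-0 was -0.30 ± 0.085 (limma, adjusted p = 0.27 and 0.251). Oasl2, an oligoadenylate synthetase-like gene, had the same order: 9.71, 9.45 and 9.78 with HDAd-0 against 9.38, 9.35 and 9.27 with HDAd-gE3 and 9.33, 9.32 and 9.46 with PBS. Its vector groups did not overlap (-0.32 ± 0.093; limma, adjusted p = 0.265), whereas HDAd-0 replicate 4 lay among the PBS arrays.

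Oas3 is the largest synthetase of the family. It read 8.28, 7.50 and 8.35 with HDAd-0, 7.91, 8.17 and 8.30 with HDAd-gE3 and 7.43, 7.26 and 7.56 with PBS. All HDAd-gE3 arrays lay above PBS, and 2 of the 3 HDAd-0 arrays did, with replicate 4 inside the PBS range. The difference from PBS was 0.63 ± 0.22 with HDAd-0 and 0.71 ± 0.22 with HDAd-gE3, a 1.55-fold and 1.64-fold difference (limma, adjusted p = 0.289 and 0.243). Its neighbour Oas2 leaned the other way, at -0.20 ± 0.14 and -0.30 ± 0.14. Oasl1, which limits Irf7 translation, had 7.99 on HDAd-0 replicate 5 and 6.98 on replicate 4, while the PBS arrays lay within 7.17 to 7.23.

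The IFIT proteins bind viral RNA and block its translation. Ifit3 read 10.98, 10.84 and 11.38 with HDAd-0, 10.88, 10.76 and 10.99 with HDAd-gE3 and 10.80, 10.77 and 10.66 with PBS. HDAd-0 lay above PBS by 0.32 ± 0.13 (limma, adjusted p = 0.356), and without replicate 5 by 0.16. Ifit1 read 10.10, 9.83 and 10.50 with HDAd-0, 10.11, 9.87 and 10.01 with HDAd-gE3 and 10.17, 10.08 and 10.07 with PBS. The HDAd-0 arrays thus reached both below and above all PBS arrays, and the difference was 0.04 ± 0.15. Ifit2 was level in all groups, between 9.66 and 9.87. Usp18, the protease that removes ISG15 from proteins and damps the interferon receptor, read 9.33, 8.86 and 9.78 with HDAd-0, 9.22, 9.36 and 9.37 with HDAd-gE3 and 9.32, 9.35 and 9.19 with PBS. Its difference from PBS was 0.04 ± 0.19, with the highest and the lowest of the 9 values both in HDAd-0.

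Mx1, a dynamin-like antiviral GTPase whose gene is defective in most inbred strains including C57BL/6, read 8.44, 8.57 and 8.84 with HDAd-0, 8.70, 8.86 and 8.62 with HDAd-gE3 and 8.34, 8.30 and 8.37 with PBS. All 6 vector arrays lay above all PBS arrays. The difference was 0.28 ± 0.11 with HDAd-0 and 0.39 ± 0.11 with HDAd-gE3 (limma, adjusted p = 0.33 and 0.21), and without HDAd-0 replicate 5 the first was 0.17. Mx2 was dim, with 5.13 to 5.82 on the PBS arrays covering 7 of the 9 values.

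The guanylate-binding proteins and the immunity-related GTPases respond strongly to interferon gamma. Gbp2 read 10.50, 10.49 and 10.84 with HDAd-0, 10.34, 10.64 and 10.56 with HDAd-gE3 and 10.35, 10.33 and 10.48 with PBS. Gbp3 read 10.66, 10.45 and 10.94 with HDAd-0, 10.25, 10.48 and 10.50 with HDAd-gE3 and 10.56, 10.45 and 10.38 with PBS. Both were 0.22 higher in mean with HDAd-0 than with PBS (limma, adjusted p = 0.453 and 0.496), and Gbp3 overlapped between all groups. On a second Gbp2 probe set of similar brightness HDAd-0 overlapped PBS as well. Its differences from PBS were 0.16 with HDAd-0 and -0.07 with HDAd-gE3, which on the brightest was 0.13. Igtp (Irgm3) and Irgm1, which act at pathogen vacuoles, differed by 0.14 ± 0.2 and 0.11 ± 0.086 in HDAd-0 against PBS. Igtp had 11.05 on HDAd-0 replicate 5 against 10.09 to 10.52 elsewhere.

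**Figure D4:**
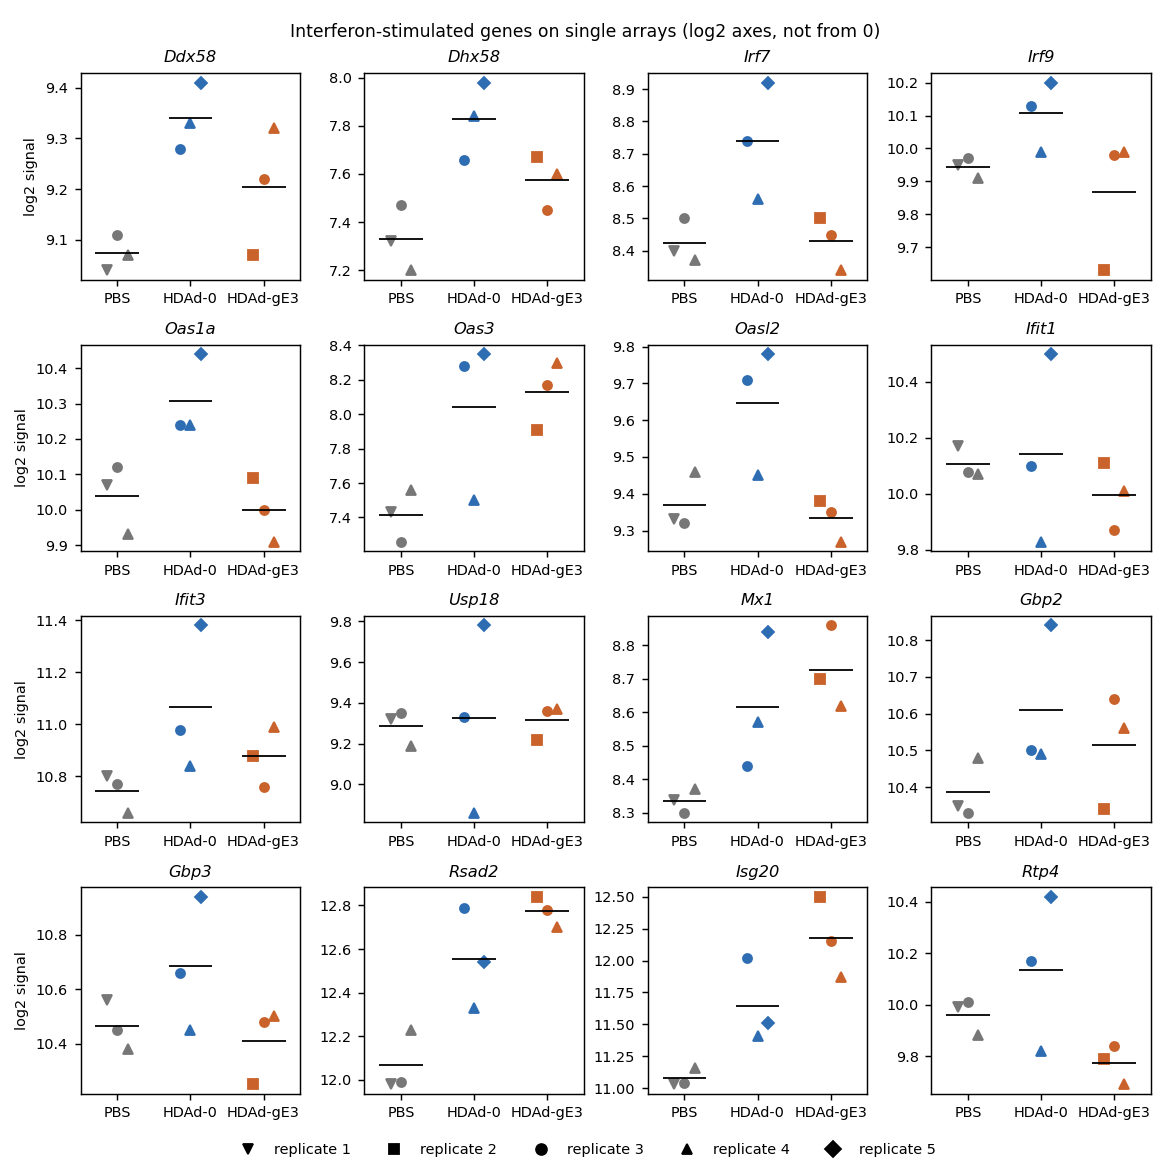
Log2 signal (y axes, not from 0) of 16 interferon-stimulated genes by group (x axes), with 1 symbol per array, shaped by replicate number, and a line at the group mean. The HDAd-0 diamond, replicate 5, is the top point in most panels, whereas in Mx1, Rsad2 and Isg20 all vector arrays lie above all PBS arrays.

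Isg20 had the largest difference from PBS with HDAd-gE3, and it and Rsad2 had the smallest p there; in both genes the HDAd-gE3 mean was the higher of the vector groups. Isg20 is a 3′ to 5′ exonuclease that acts on single-stranded RNA. It read 12.50, 12.15 and 11.87 with HDAd-gE3, 12.02, 11.41 and 11.51 with HDAd-0 and 11.03, 11.04 and 11.16 with PBS. All 6 vector arrays lay above PBS, and the vector groups overlapped. Isg20 was 2.14-fold higher with HDAd-gE3 (1.10 ± 0.19; limma, adjusted p = 0.0847) and 1.48-fold higher with HDAd-0 (0.57 ± 0.19; adjusted p = 0.276), and HDAd-gE3 against HDAd-0 was 0.53 ± 0.19 (adjusted p = 0.325). Without HDAd-0 replicate 3 the HDAd-0 difference was 0.38.

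Rsad2 encodes viperin, which makes a chain-terminating nucleotide that stops viral RNA synthesis. On its brightest probe set it read 12.84, 12.78 and 12.70 with HDAd-gE3, 12.79, 12.33 and 12.54 with HDAd-0 and 11.98, 11.99 and 12.23 with PBS. All 6 vector arrays lay above PBS. The difference was 0.70 ± 0.12 with HDAd-gE3 and 0.49 ± 0.12 with HDAd-0, or 1.63-fold and 1.4-fold (limma, adjusted p = 0.0847 and 0.186). The other probe sets of the same gene gave larger differences. The second probe set read 12.67, 12.44 and 12.30 with HDAd-gE3, 12.58, 12.04 and 12.12 with HDAd-0 and 11.41, 11.22 and 11.67 with PBS, a difference of 1.04 ± 0.17 with HDAd-gE3 and 0.81 ± 0.17 with HDAd-0. The dimmest probe set read 8.70, 8.40 and 7.93 with HDAd-gE3, 8.44, 7.43 and 7.76 with HDAd-0 and 6.74, 6.28 and 6.89 with PBS. There the difference was 1.71 ± 0.29 with HDAd-gE3 (3.27-fold) and 1.24 ± 0.29 with HDAd-0 (2.36-fold). So the groups kept their order on all 3 probe sets, and the size ranged from 1.63-fold to 3.27-fold for HDAd-gE3. In a fit over 34945 single-gene probe sets the adjusted p for HDAd-gE3 against PBS was 0.109, 0.0933 and 0.102 (limma), so none passed there either.

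**Figure D5:**
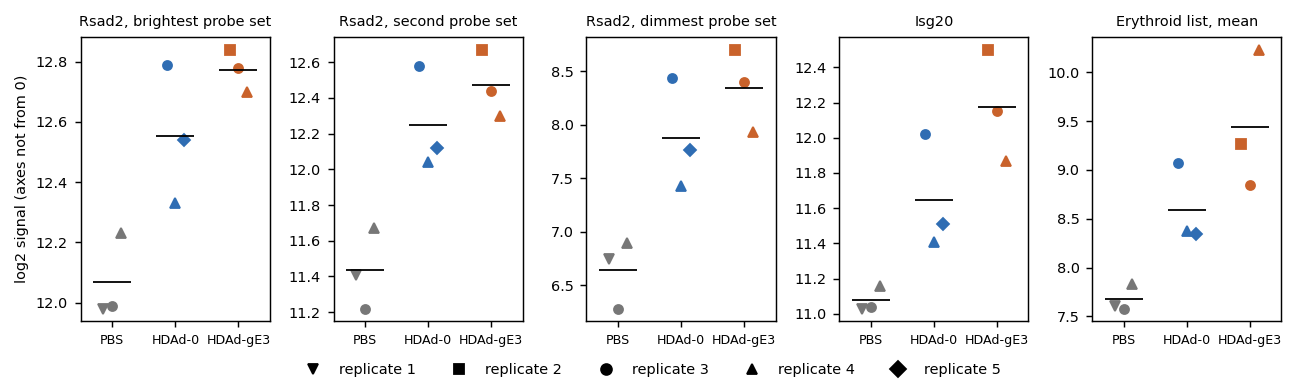
Log2 signal (y axes, not from 0) by group (x axes) on the 3 Rsad2 probe sets, on Isg20, and as the mean of 7 erythroid genes, with 1 symbol per array and a line at the group mean. All 6 vector arrays lie above all PBS arrays in each panel, with HDAd-0 replicate 3 highest of its group in every panel; within HDAd-gE3, replicate 2 is highest in Isg20 (12.50) and replicate 4 in the erythroid genes (10.23).

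Erythroid genes stood in the same order of groups as Isg20 and Rsad2. This list of 7 measured genes, which was added after the values were seen, had a mean of 8.84 to 10.23 on the HDAd-gE3 arrays, 8.34 to 9.07 on HDAd-0 and 7.58 to 7.83 on PBS. Trim10, Slc4a1 and Car2 passed in HDAd-gE3 against PBS (limma, adjusted p = 0.0371, 0.0386 and 0.0369), where 0.126% of all genes did. Among the HDAd-0 arrays replicate 3 was highest in erythroid genes (9.07) and also in Isg20 and on all 3 Rsad2 probe sets. Among the HDAd-gE3 arrays replicate 4 was highest in erythroid genes but lowest in Isg20 and on the 3 Rsad2 probe sets. Neutrophil markers had a mean of 10.69 to 11.78 with HDAd-gE3, 9.53 to 10.26 with HDAd-0 and 9.79 to 10.15 with PBS, with the highest value of each vector group on the same arrays as for the erythroid genes. The part of these cells in the 2 genes was not tested.

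Cmpk2 is a mitochondrial nucleotide kinase whose gene lies next to Rsad2 on chromosome 12, with 0 annotated protein-coding genes between them. It read 8.41, 8.19 and 8.43 with HDAd-0, 8.14, 8.12 and 8.38 with HDAd-gE3 and 8.39, 8.18 and 8.41 with PBS. The groups overlapped throughout, with differences of 0.02 ± 0.1 and -0.11 ± 0.1 from PBS. Its second, dimmer probe set gave 0.15 and 0.19. Oas2 and Oas3 on chromosome 5 likewise have 0 annotated protein-coding genes between them, and their differences had opposite signs. Bst2 encodes tetherin, which holds budding virions on the cell surface. It read 10.72, 10.66 and 10.97 with HDAd-0, 10.68, 10.71 and 10.61 with HDAd-gE3 and 10.56, 10.58 and 10.35 with PBS, so all 6 vector arrays lay above PBS. The difference was 0.29 ± 0.097 with HDAd-0 and 0.17 ± 0.097 with HDAd-gE3 (limma, adjusted p = 0.284 and 0.491), and without HDAd-0 replicate 5 the first was 0.19. Samd9l, a translation inhibitor, stayed within 11.47 to 11.78.

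In all, 4 genes (Mx1, Rsad2, Bst2 and Isg20) had all 6 vector arrays above all PBS arrays, 11.8% of the 34 against 4.57% of all genes, and 0 had all 6 below (2.72%). Irf7, Irf9 and Oas1a had all HDAd-0 arrays above both other groups, 8.82% against 3.92%. The HDAd-0 mean was the highest of the 3 for 25 genes, against 42.9% of all genes. The HDAd-gE3 mean was highest for 6 genes (Eif2ak2, Stat2, Oas3, Mx1, Rsad2 and Isg20), against 25.6%. The PBS mean was highest for Oas2, Ifit2 and Ifi35, 8.82% of the 34 against 31.6% of all genes.

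The remaining induced genes have less settled roles. Rtp4 is a chaperone of membrane receptors that also restricts viruses. It read 10.17, 9.82 and 10.42 with HDAd-0, 9.79, 9.84 and 9.69 with HDAd-gE3 and 9.99, 10.01 and 9.88 with PBS. The HDAd-gE3 arrays all lay under the PBS arrays (-0.18 ± 0.13 in mean), while the HDAd-0 arrays reached both below and above PBS. HDAd-gE3 against HDAd-0 was -0.36 ± 0.13 (limma, adjusted p = 0.338), and -0.22 without HDAd-0 replicate 5. On a dimmer Rtp4 probe set the HDAd-gE3 arrays overlapped PBS, with a difference of 0.10. There HDAd-0 was 0.34 above PBS, and HDAd-gE3 against HDAd-0 was -0.25. Parp14, an ADP-ribosyltransferase, read 10.95, 11.15 and 11.05 with HDAd-0, 10.89, 10.83 and 10.89 with HDAd-gE3 and 10.95, 10.96 and 10.95 with PBS. Its HDAd-gE3 arrays lay below all others (-0.18 ± 0.062 against HDAd-0; limma, adjusted p = 0.325), but a dimmer probe set gave 0.12. Ifi35 also had all HDAd-gE3 arrays below the arrays of both other groups (-0.12 ± 0.066 from PBS), but its second probe set had all of them above PBS, by 0.15, and HDAd-0 above PBS by 0.24. On the dimmest Ifi35 probe set all HDAd-gE3 arrays again lay below PBS. The differences from PBS there were -0.19 with HDAd-gE3 and 0.05 with HDAd-0. Xaf1, a pro-apoptotic zinc finger protein, Trim30a, a ubiquitin ligase, and Ifi27l2a, a small membrane protein, had differences from PBS of 0.13 to 0.23 with HDAd-0 and 0.03 to 0.10 with HDAd-gE3.

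Of the 34 genes, 13 had further single-gene probe sets, 18 in number. In HDAd-0 against PBS 15 of these 18 had the sign of the brightest probe set, in HDAd-gE3 against PBS 11 and in HDAd-gE3 against HDAd-0 13. None of the 52 probe sets passed over all probe sets in any of the 4 comparisons (limma), where between 0 and 30 of the 34945 did.

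The genes that make and transmit the interferon signal were read from a separate list, 42 of 47 measured. None of the 42 passed in any comparison, where between 0.0055% and 0.187% of all genes did. In HDAd-0 against PBS 31 were higher in mean (57.6% of all genes) with a median of 0.075; 10 had an unadjusted p under 0.05, all of them higher (8.5% of all genes). In HDAd-gE3 against PBS 20 were higher in mean, a share near the 45.4% of all genes, with a median of -0.012, and 4 were higher and 2 lower at that level (5.94% and 7.27% of all genes). The interferons themselves were dim, and Ifnb1 had means of 4.10, 3.94 and 3.89 in HDAd-0, HDAd-gE3 and PBS.

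Of the receptors, Ifngr2, the second chain of the interferon gamma receptor, was higher with both vectors, at means of 10.54 with HDAd-0 and 10.58 with HDAd-gE3 against 10.20 (0.34 ± 0.064 and 0.38 ± 0.064; limma, adjusted p = 0.127 and 0.0847). Ifnar1, a chain of the type I receptor, was 0.23 and 0.25 higher in mean. In the sensing branch Mavs, the mitochondrial adaptor of RIG-I and MDA5, read 8.87, 9.06 and 9.07 with HDAd-gE3, 9.57, 9.41 and 9.17 with HDAd-0 and 9.59, 9.54 and 9.57 with PBS. All HDAd-gE3 arrays lay below the others, and the difference from PBS was -0.57 ± 0.1, with an adjusted p of 0.0872 (limma). Trim24, a repressor of interferon responses, was 0.24 higher with HDAd-0 and 0.30 higher with HDAd-gE3, and Unc93b1, which carries nucleic acid-sensing Toll-like receptors to endosomes, 0.46 higher with HDAd-0. Irf8 and Tlr7 had differences of -0.21 ± 0.064 and -0.24 ± 0.075 in HDAd-gE3 against HDAd-0 (limma, adjusted p = 0.273 and 0.285).

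A list of other interferon-inducible genes (48 of 54 measured) also had 0 genes past the threshold in each comparison, where between 0.0055% and 0.187% of all genes passed. In HDAd-0 against PBS 40 of 48 were higher in mean (57.6% of all genes) with a median of 0.112; 10 had an unadjusted p under 0.05, all of them higher (8.5% of all genes). The smallest p belonged to Uba7, the enzyme that activates ISG15 (0.30 ± 0.059), the immunoproteasome subunit Psmb9 (0.59 ± 0.12) and the peptide transporter Tap1 (0.47 ± 0.11). In HDAd-gE3 against PBS 30 of 48 were higher in mean (45.4% of all genes) with a median of 0.040, and 5 were higher and 3 lower at that level (5.94% and 7.27% of all genes). There Psmb9 was 0.50 ± 0.12 higher, while Lgals3bp and Slfn8 were -0.36 ± 0.068 and -0.25 ± 0.061 (limma, adjusted p = 0.0917 for Lgals3bp). In HDAd-gE3 against HDAd-0 4 of 48 were higher in mean (38.3% of all genes), with Ifi204, a DNA-binding sensor, at -0.41 ± 0.073 (limma, adjusted p = 0.191). HDAd-0 replicate 5 held the highest of the 9 values for 29 of these 48 genes (60.4%), against 11.6% of all genes. Of the 42 genes of the signal pathway it held the highest value for 10 (23.8%), and HDAd-0 replicate 4 for 17 (40.5%).

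Markers of other cells and tissues were read beside these values. Liver markers had a mean of 10.05 on HDAd-0 replicate 5, 8.63 and 9.17 on replicates 3 and 4, 7.99 to 9.03 on the HDAd-gE3 arrays and 7.50 to 8.00 on the PBS arrays; 6 of 6 were higher in mean with HDAd-0 than with PBS. T and NK cell markers were also highest on HDAd-0 replicate 5, at 8.78 against 7.74 to 8.61 elsewhere, as were plasmacytoid dendritic cell markers, at 9.43 against 8.75 to 9.36, skeletal muscle markers, at 8.37 against 5.85 to 8.15, and adipose markers, at 11.34 against 10.92 to 11.26. Endothelial markers were highest there too (10.75). In contrast, smooth muscle (12.81) and neutrophil markers (9.53) were lowest of the 9 arrays on replicate 5, and erythroid markers (8.34) lowest of its group. Macrophage (11.95) and B and plasma cell markers (7.93) were there within the range of the other arrays. Macrophage markers were within 11.91 to 12.02 with HDAd-0, 11.83 to 11.89 with PBS and 11.73 to 11.77 with HDAd-gE3, and 7 of 8 were higher in mean with HDAd-0 than with PBS. Endothelial markers had 10.59 to 10.75 with HDAd-0, 10.39 to 10.48 with HDAd-gE3 and 10.19 to 10.29 with PBS. All 7 endothelial markers were higher in mean with each vector than with PBS, where 57.6% of all genes were with HDAd-0 and 45.4% with HDAd-gE3. Of the 7, 2 passed with HDAd-0, where 0.066% of all genes did. Of the other lists, 5 of 7 T and NK cell, 4 of 6 plasmacytoid dendritic, 5 of 5 B and plasma cell, 4 of 6 skeletal muscle and 3 of 4 adipose markers were higher in mean with HDAd-0 than with PBS, where 57.6% of all genes were. So were 6 of 7 erythroid, but only 2 of 6 neutrophil and 1 of 6 smooth muscle markers. Averaged over the list, plasmacytoid dendritic and adipose markers were lower with HDAd-0 than with PBS (9.13 against 9.22, and 11.12 against 11.15). Since the lowest signal in the table is 1.98, no marker read 0. The part of these cells in the values above was not tested. As a measure of RNA integrity, control transcripts read higher at their 3′ than at their 5′ probe sets by a log2 mean of 0.933 ± 0.16 (SD, n = 3) with HDAd-0, 0.735 ± 0.069 with HDAd-gE3 and 0.866 ± 0.071 with PBS. On HDAd-0 replicates 3, 4 and 5 it was 0.957, 1.08 and 0.760, against 0.673 to 0.917 in the other groups. Replicate 4, highest of the 9 here, was the lowest of its group for 24 of the 34 genes. The part of this value in the standing of the arrays was not tested. With that value as a covariate the median of the 34 genes in HDAd-gE3 against PBS was -0.089, and in HDAd-gE3 against HDAd-0 it was -0.266.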

How the data were processed

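Total RNA of 9 aorta pools (3 groups of 3) was amplified and biotin-labelled (FL-Ovation kit, per the labels' protocols) and hybridised to Affymetrix mouse arrays. The deposited table holds log2 signals of 45101 probe sets. Per the submitters' processing notes, RMA produced them (software version: not given in the sources used here), and the log2 scale was inferred from the span of the values. Since RMA equalises the distributions of arrays, a general shift of all genes cannot appear, and the number of arrays limits the precision. In the platform annotation 34945 probe sets had 1 gene, 932 had several, 9160 had none and 64 were controls; 34741 matched RefSeq (GRCm38.p6) by gene identifier, and promoter sequences are RefSeq's.

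Using limma 3.58.1 in R 4.3.3, lmFit and eBayes models were fitted on all 18193 genes over all 9 arrays, with 6 residual degrees of freedom and no covariate, checked on simulated data; matplotlib 3.10.9 drew the figures. Alternatives were other scalings, a filter at 5.43 on dim genes, other probe sets, array weights, a replicate block, a trend with intensity, fewer groups, the control signal and left-out arrays. The genes, lists and tests were chosen with earlier results of these data known. Single arrays are given for the 2 genes of each role with the smallest unadjusted p in a pairwise comparison (1 in roles of 2) and for Rsad2; Oas3, Bst2 and Cmpk2 were chosen after their values were seen. Of other lists, the 3 genes with the smallest p per comparison are named, with a few chosen afterwards. Labels do not say whether pools are separate cohorts, so p measures the spread between these pools.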

Additional observations from a re-analysis of the deposited data

How the results depend on the processing

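Results were recomputed under 20 alternatives (19 for both vectors against PBS, whose fit already holds just the groups compared): 32 differences of single genes with an unadjusted p under 0.05, and for each comparison the number of the 34 genes past the threshold, the number higher in mean and the median. A median was said to move when it shifted by more than 0.105, the SD of the members' median between arrays of a group. With array weights 4 genes passed in HDAd-gE3 against PBS and 3 in both vectors against PBS, and with an intensity trend 2 and 2. Shares of all genes under the alternatives are not given in this section, so its counts cannot be set against all genes. Leaving out single arrays, 0 to 2 genes passed in both vectors against PBS (2 without HDAd-0 replicate 4) and 0 in the other comparisons. Leaving out single arrays, the median ran from 0.100 to 0.292 in HDAd-0 against PBS, 0.003 to 0.041 in HDAd-gE3 against PBS, -0.197 to -0.034 in HDAd-gE3 against HDAd-0 and 0.058 to 0.150 in both vectors against PBS. The number higher in mean ran from 27 to 33, 17 to 21, 5 to 12 and 23 to 29. With HDAd-0 replicate 5 and HDAd-gE3 replicate 4 both left out, the HDAd-0 median was 0.100 and 15 genes were higher in HDAd-gE3 against HDAd-0. With the 3′ minus 5′ covariate the median turned to -0.089 in HDAd-gE3 against PBS, with 10 genes higher, and was -0.266 in HDAd-gE3 against HDAd-0, with 2 higher; the cause was not tested. Of the single differences, 1 reversed: Parp14 in HDAd-gE3 against HDAd-0 was 0.12 on its most variable probe set. The number higher in HDAd-0 against PBS at an unadjusted p under 0.05 (11) was 20 with the 3′ minus 5′ covariate. The number lower in HDAd-gE3 against HDAd-0 (8) was 14 with median centring or that covariate, 4 with the most variable probe sets or only the groups compared, and 0 with HDAd-0 replicate 5 and HDAd-gE3 replicate 4 both left out.

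The groups share the replicate numbers 3 and 4. Deviations of same-numbered arrays from their group means correlated between -0.0464 and 0.0999 over genes, so the numbers were not taken to pair the samples. With a replicate block the HDAd-0 median was 0.111, these counts of 11 and 8 were 6 and 2, and 13 genes were higher in HDAd-gE3 against HDAd-0.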
